A study of Mus musculus with 12 samples.

Results

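The 32 genes described here are Trp53, which encodes the transcription factor p53, its inhibitors Mdm2 and Mdm4, and 29 genes listed as p53 targets. Whether p53 activates each of the 29 in this mouse tissue was not tested. They were chosen by gene symbol, and all 32 were found among the 23420 genes of the deposited count table and passed the filter on low counts, as members of the 15369 genes tested. RNA was taken from whole pieces of pylorus, where the stomach opens to the duodenum, in C57BL/6 mice. The groups were CEA424-SV40 T Ag transgenic mice at 80 days of age (D80SV), wild-type mice at 80 days (D80WT), transgenic mice at 60 days (D60SV) and wild-type mice at 60 days (D60WT), with 3 RNA-seq libraries each and 12 in all. The transgene places the T antigen of the simian virus SV40 under a promoter of the human carcinoembryonic antigen gene, wild-type mice carry no transgene, and the labels give no other allele and no treatment. Whether each library came from its own animal is not in the labels, and p-values therefore measure only how libraries spread.

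p53 is a transcription factor that is held at a low level by Mdm2, an enzyme that marks it for destruction, and by Mdm4, which covers its activation domain. After DNA damage or oncogene activity p53 is released and switches on genes that stop the cell cycle, repair DNA, alter metabolism or trigger apoptosis, and Mdm2 is itself such a target. The large T antigen of SV40 binds p53 and blocks its binding to DNA, and it also binds the retinoblastoma proteins that restrain E2F transcription factors.

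The pylorus label was checked with 9 genes of pyloric epithelium, and all of them were detected in every library. Gast, which encodes the hormone gastrin, and Gkn1, a gastrokine of surface mucous cells, were lowest in the D80SV libraries, at 82.5 CPM and 4899 CPM in the lowest of the 3. Of the 9 genes, 6 were lower in D80SV than in D80WT and 0 higher by the test described below. Tff2, Muc6 and Pdx1 overlapped between these 2 groups. Against D60SV, 6 were lower and 0 higher, while Muc6 lay above in every D80SV library. Total counts ranged from 20121600 to 27633715 per library. Values below are CPM, counts scaled to a library total of 1000000 with TMM factors (trimmed mean of M-values), and a gene is called higher or lower where the edgeR quasi-likelihood test gave a Benjamini-Hochberg adjusted p below 0.05 over the 15369 genes. Transcripts of Xist and 4 Y-linked genes were of the male type in the 3 D60WT libraries and in 1 D80SV library, and of the female type in the other libraries, so genotype and sex cannot be told apart at D60, nor age and sex between D80WT and D60WT, and the interaction holds both of these contrasts.

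Promoter sequence was taken from RefSeq (GRCm38.p6) for the 24 genes that matched its table, in windows from 250 bases before to 50 bases after each annotated start, to see which of them hold letters that p53 can bind. The decamer of the p53 response element, named here without spelling it because it holds degenerate positions, reads the same on both strands. It was found without mismatch in 9 of the 24 genes and in 10 of their 39 windows, against 8.36% of the 32851 promoter windows of the same length. The full element, a pair of adjacent decamers with up to 2 mismatches, was found in 1 of the 24 genes, Ccng1. That is 1 of the 39 windows, against 0.798% of all windows. Sequence outside the windows was not searched. The match in Ccng1 had 1 mismatch and started at position -195 from the annotated start. The window of Polk that holds the decamer belongs to an alternative start inside the gene, and the window at the 5′ end of the gene holds 0 decamers. A match is a description of the letters and not a measured binding site. The 250 bases before the start are shown for 3 of the genes that were lower in D80SV (Ccng1, Ei24 and Polk) and for 2 that did not pass the test (Mdm2 and Bax), with the matching letters in capitals and each read 5′ to 3′ on the minus strand that carries the gene.
Ccng1, chr11:40755287-40755536, minus strand: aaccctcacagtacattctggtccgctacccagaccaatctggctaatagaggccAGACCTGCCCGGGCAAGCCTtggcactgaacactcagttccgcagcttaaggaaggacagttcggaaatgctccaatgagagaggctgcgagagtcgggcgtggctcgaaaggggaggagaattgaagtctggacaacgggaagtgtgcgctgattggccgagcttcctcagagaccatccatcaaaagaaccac
Ei24, chr9:36797335-36797584, minus strand: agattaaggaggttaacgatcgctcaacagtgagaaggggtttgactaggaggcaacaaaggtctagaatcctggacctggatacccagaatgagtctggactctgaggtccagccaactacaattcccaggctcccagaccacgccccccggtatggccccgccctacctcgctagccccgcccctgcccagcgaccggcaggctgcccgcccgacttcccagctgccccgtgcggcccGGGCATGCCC
Polk, chr13:96519188-96519437, minus strand: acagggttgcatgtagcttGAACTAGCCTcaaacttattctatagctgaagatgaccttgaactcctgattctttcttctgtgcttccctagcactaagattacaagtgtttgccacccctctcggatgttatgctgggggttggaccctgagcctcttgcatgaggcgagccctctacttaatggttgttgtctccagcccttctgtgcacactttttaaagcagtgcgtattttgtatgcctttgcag
Mdm2, chr10:117710759-117711008, minus strand: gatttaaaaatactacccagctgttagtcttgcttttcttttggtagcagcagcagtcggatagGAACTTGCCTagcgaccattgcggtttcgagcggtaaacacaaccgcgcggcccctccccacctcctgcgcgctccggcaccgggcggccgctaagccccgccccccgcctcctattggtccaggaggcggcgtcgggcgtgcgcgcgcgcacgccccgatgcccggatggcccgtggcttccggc
Bax, chr7:45466899-45467148, minus strand: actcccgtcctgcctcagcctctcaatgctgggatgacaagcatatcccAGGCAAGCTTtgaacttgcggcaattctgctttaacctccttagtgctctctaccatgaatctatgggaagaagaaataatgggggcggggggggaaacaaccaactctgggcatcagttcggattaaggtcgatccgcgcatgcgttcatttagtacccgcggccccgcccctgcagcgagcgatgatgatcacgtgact
The decamer was thus present both in genes that were lower in D80SV and in genes that did not pass the test. The other 4 genes with a decamer were Gadd45a, Aen, Sesn1 and Trp53. None of them was called in any of the 5 comparisons by the TMM-scaled edgeR fit of all 12 libraries. With library totals and no composition factor, Aen was called higher in D80SV than in D80WT, and Trp53 higher in D80SV than in D60SV.

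The comparison of D80SV with D80WT asked how the p53 genes stood in the transgenic pylorus at the later age. Of the 32 genes, 3 were higher and 8 were lower in D80SV. Plk2, Eda2r and Sesn2 were higher, and Perp, Ptpn14, Cd82, Btg2, Polk, Ei24, Zmat3 and Ccng1 were lower. That is 34.4% of the 32 genes, against 41.3% of all genes tested, with 19.4% of all genes higher and 22.0% lower. The median log2 fold change of the 32 genes was -0.11, against -0.07 over all genes tested. Of the 32 genes, 6 lay above and 7 below in D80SV without overlap between the groups, against 24.4% and 26.1% of all genes tested. In bulk tissue, fewer cells of a type and less RNA per cell cannot be told apart.

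**Figure D1:**
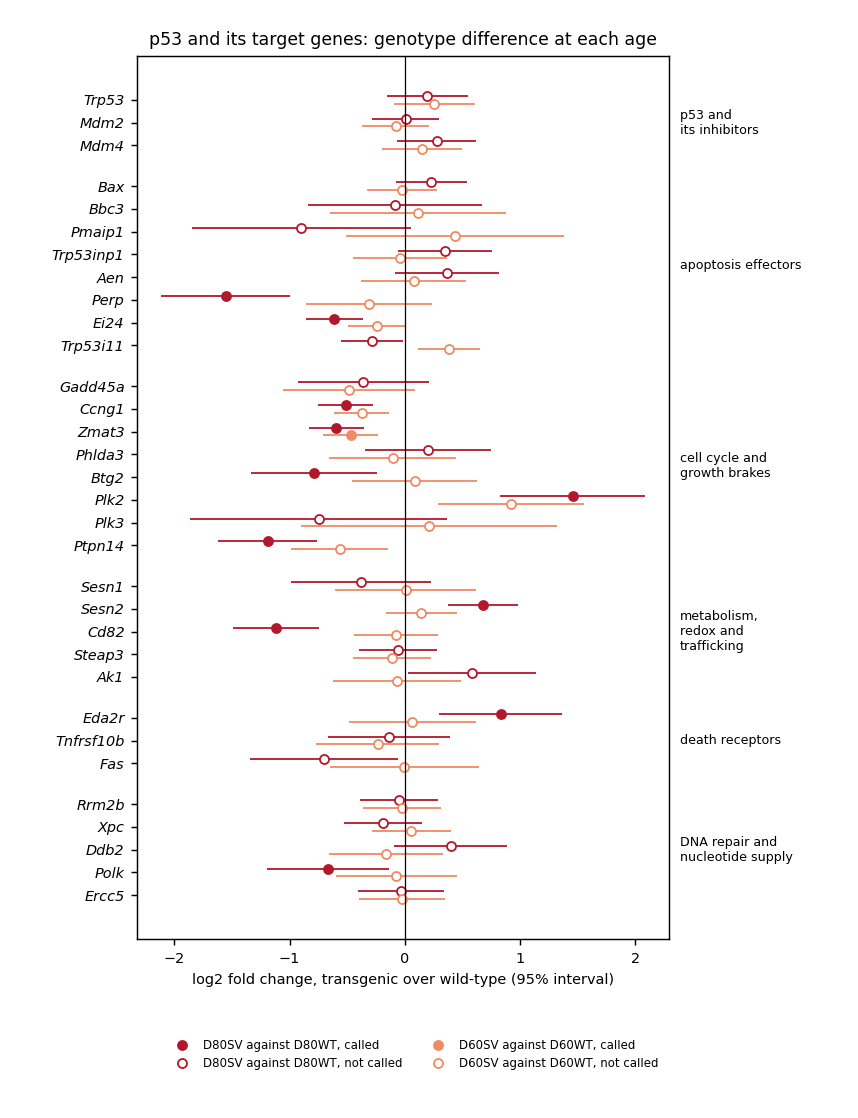
Log2 fold change of each of the 32 genes, transgenic over wild-type, with its 95% interval, at D80 (dark red) and at D60 (orange), grouped by role; filled points passed an adjusted p of 0.05. At D80, 11 points are filled, 3 to the right of 0 (Plk2, Eda2r and Sesn2) and 8 to the left, and at D60 only that of Zmat3 is filled.

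Scaling changed the split of these calls. D80SV libraries had TMM factors of 1.205 to 1.3, above those of the other 9 libraries. With library totals and no composition factor, the median log2 fold change of all genes in D80SV against D80WT was 0.34 in place of -0.07, and 10 of the 32 genes were then higher and 3 lower, against 33.2% and 6.51% of all genes. The 10 were Mdm2, Mdm4, Bax, Sesn2, Trp53inp1, Eda2r, Aen, Plk2, Ddb2 and Ak1, and the 3 were Perp, Cd82 and Ptpn14. The median of the 32 genes minus that of all genes was -0.038 with TMM and -0.044 without, so all directions below are relative to the bulk of the transcriptome.

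Trp53 and its inhibitors came first by role. Trp53 (chr11:69580359-69591873 in GRCm38) was at 46.0, 39.6 and 48.6 CPM in D80SV, 46.7, 38.8 and 31.8 CPM in D80WT, 35.0, 42.5 and 34.0 CPM in D60SV and 27.0, 35.2 and 31.2 CPM in D60WT. The groups overlapped within each age and within each genotype, and no comparison was called (at D80 log2 fold change 0.20, SE 0.16, edgeR adjusted p = 0.35, 95% interval -0.15 to 0.55). Mdm2 (chr10:117688875-117710758) was at 35.8, 41.5 and 43.6 CPM in D80SV and 33.2, 42.1 and 44.8 CPM in D80WT. It was at 39.5, 35.7 and 43.3 CPM in D60SV and 42.0, 39.1 and 43.9 CPM in D60WT. All 12 libraries lay between 33.2 and 44.8 CPM, with overlap between every pair of groups (at D80 log2 fold change 0.01, SE 0.13, edgeR adjusted p = 0.97, interval -0.28 to 0.30). Mdm4 (chr1:132959484-133030561) averaged 15.8 ± 1.56 CPM in D80SV and 13.1 ± 1.66 CPM in D80WT, and 15.0 ± 2.18 CPM in D60SV and 13.5 ± 1.49 CPM in D60WT (SD, n = 3 each), with overlap at both ages. Without the composition factor, Mdm2 (0.44, adjusted p = 0.0185) and Mdm4 (0.70, adjusted p = 0.0154) passed the edgeR test as higher in D80SV than in D80WT. In the same fit, Trp53 (0.63, adjusted p = 0.041) and Mdm2 (0.40, adjusted p = 0.029) passed the edgeR test as higher in D80SV than in D60SV.

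Of the 8 genes of apoptosis, Perp and Ei24 were lower in D80SV than in D80WT and none was higher. Perp (chr10:18845020-18857073), a membrane protein of desmosomes that takes part in p53-dependent cell death, was at 125, 111 and 103 CPM in D80SV and 218, 386 and 391 CPM in D80WT. Every D80SV library was below every D80WT library, and D80WT replicate 1 was the lowest of its group (log2 fold change -1.55, SE 0.26, edgeR adjusted p = 0.00074). Ei24 (chr9:36779159-36797393), an endoplasmic reticulum protein with roles in apoptosis and autophagy whose promoter letters are shown above, was at 90.6, 79.9 and 82.7 CPM in D80SV and 122, 135 and 129 CPM in D80WT. The groups did not overlap (log2 fold change -0.61, SE 0.11, edgeR adjusted p = 0.0016). The fold was 0.341 for Perp and 0.655 for Ei24.

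The other 6 apoptosis genes did not pass the test at D80. Bax, a pore-forming protein of the mitochondrial membrane, averaged 45.6 ± 3.45 CPM in D80SV and 38.8 ± 6.35 CPM in D80WT (log2 fold change 0.23, interval -0.07 to 0.54). Bbc3, which encodes the BH3-only protein Puma, averaged 4.71 ± 1.16 CPM in D80SV and 4.99 ± 1.27 CPM in D80WT (interval -0.84 to 0.67). Both groups overlapped for these genes. Pmaip1, which encodes the BH3-only protein Noxa, was at 14.5, 17.1 and 10.9 CPM in D80SV and 8.53, 27.3 and 43.6 CPM in D80WT. D80WT replicate 1 lay below all 3 D80SV libraries and the other 2 D80WT libraries above them (log2 fold change -0.90, SE 0.44, edgeR adjusted p = 0.12). Aen, a nuclease of apoptotic DNA breakdown, averaged 20.5 ± 0.981 CPM in D80SV and 15.8 ± 5.55 CPM in D80WT, with overlap. Trp53inp1, a nuclear protein that promotes p53-dependent death, averaged 23.7 ± 2.06 CPM in D80SV and 18.6 ± 1.89 CPM in D80WT, and the groups did not overlap (log2 fold change 0.35, SE 0.19, edgeR adjusted p = 0.15). Trp53i11, named for its induction by p53, was at 64.1, 65.8 and 61.6 CPM in D80SV and 68.4, 84.6 and 80.6 CPM in D80WT. The D80SV libraries lay below the D80WT libraries (log2 fold change -0.29, SE 0.12, edgeR adjusted p = 0.081), but without the composition factor the value was 0.14, with the opposite sign (edgeR adjusted p = 0.31).

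Of the 8 genes that brake growth or the cell cycle, 1 was higher and 4 were lower in D80SV. Plk2 (chr13:110395046-110400844), a polo-like kinase of centriole duplication and the stress response, was at 38.3, 53.1 and 39.3 CPM in D80SV and 20.8, 14.7 and 11.8 CPM in D80WT. Every D80SV library was above every D80WT library, and the fold was 2.75 (log2 fold change 1.46, SE 0.29, edgeR adjusted p = 0.0023). Ptpn14 (chr1:189728268-189876695), a phosphatase that restrains the growth co-activator Yap, was at 16.2, 13.8 and 14.6 CPM in D80SV and 37.5, 28.1 and 36.6 CPM in D80WT. Every D80SV library was below every D80WT library (log2 fold change -1.19, SE 0.20, edgeR adjusted p = 0.00076). Zmat3 (chr3:32334792-32366014), an RNA-binding zinc-finger protein, was at 44.7, 37.2 and 39.5 CPM in D80SV and 60.8, 65.7 and 57.0 CPM in D80WT, without overlap (log2 fold change -0.59, SE 0.11, edgeR adjusted p = 0.0014). Ccng1 (chr11:40748552-40755311), which encodes cyclin G1 and held the only full p53 element in the sequences above, was at 109, 86.7 and 104 CPM in D80SV and 148, 145 and 134 CPM in D80WT. Every D80SV library was below every D80WT library (log2 fold change -0.51, SE 0.11, edgeR adjusted p = 0.0036).

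Btg2 (chr1:134075170-134079120), an antiproliferative adaptor of mRNA decay, was at 106, 97.9 and 102 CPM in D80SV and 104, 184 and 240.0 CPM in D80WT. Its call rested on 2 of the 3 D80WT libraries, since D80WT replicate 1 lay within the D80SV range (log2 fold change -0.79, SE 0.25, edgeR adjusted p = 0.025), and it was lost in 10 of 26 alternative fits, with adjusted p up to 0.19. The remaining 3 genes of growth control did not pass. Gadd45a, a stress sensor that arrests the cell cycle, averaged 17.5 ± 2.24 CPM in D80SV and 22.5 ± 7.72 CPM in D80WT. Phlda3, an inhibitor of the kinase Akt, averaged 17.8 ± 0.417 CPM in D80SV and 15.5 ± 5.14 CPM in D80WT. Plk3, another polo-like kinase of the stress response, was at 18.9, 23.3 and 18.2 CPM in D80SV and 8.21, 48.0 and 45.4 CPM in D80WT. For Plk3 the D80WT libraries lay on both sides of the D80SV libraries, with replicate 1 far below the other 2, and the interval of the log2 fold change ran from -1.86 to 0.37.

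**Figure D2:**
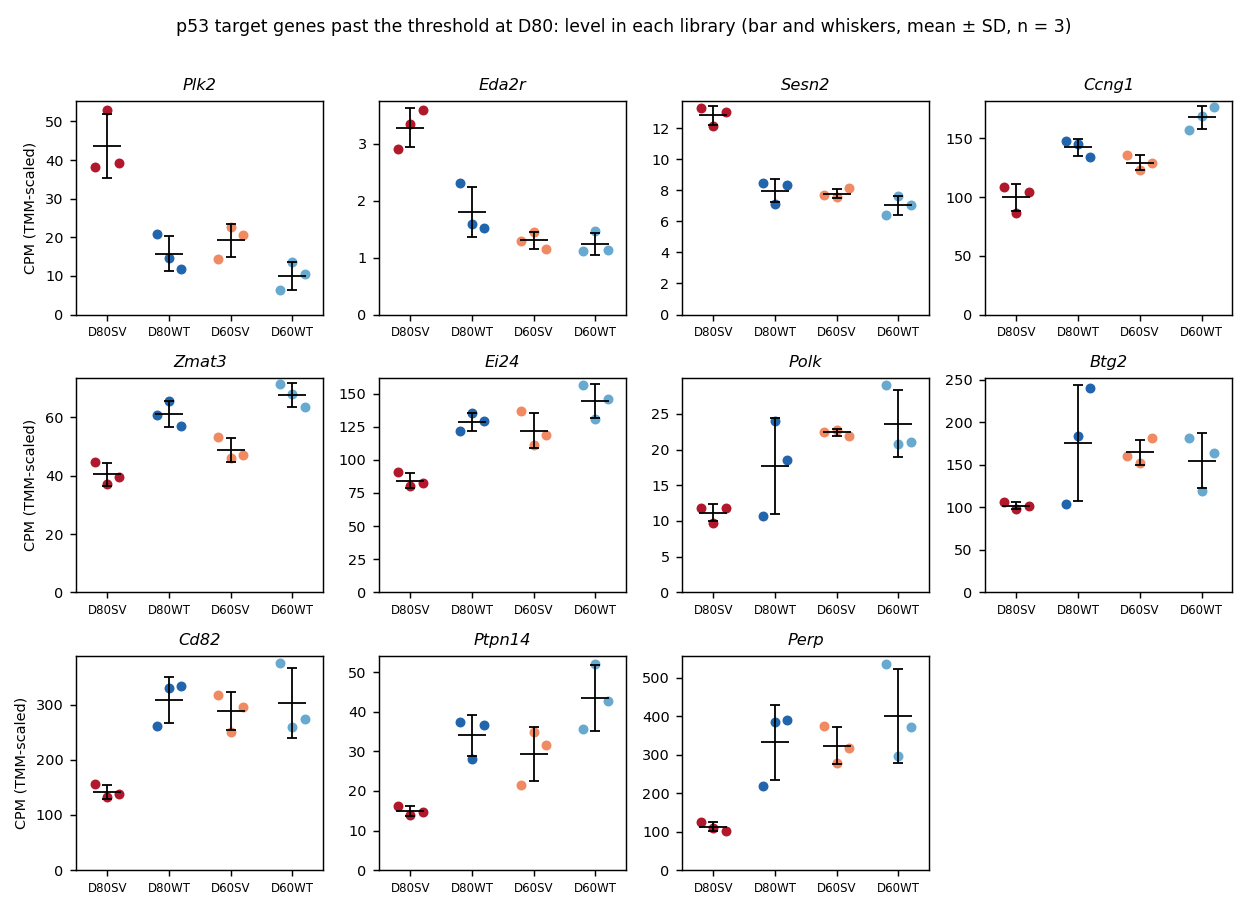
CPM of the 11 genes that passed the test at D80, in each of the 12 libraries, 1 panel a gene, with the mean and SD of each group (n = 3). In the panels of Plk2, Eda2r and Sesn2 the D80SV points lie above the other 3 groups. In the panels of Perp, Cd82, Ptpn14, Ei24, Zmat3 and Ccng1 the D80SV points lie below the other 3 groups. In those of Btg2 and Polk the lowest D80WT point lies among the D80SV points.

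Among the 5 genes of metabolism, redox balance and trafficking, Sesn2 was higher and Cd82 lower in D80SV. Sesn2 (chr4:132492032-132510501), a stress-induced inhibitor of the growth kinase complex mTORC1, was at 13.3, 12.1 and 13.0 CPM in D80SV and 8.45, 7.10 and 8.36 CPM in D80WT. All D80SV libraries were above all other libraries (log2 fold change 0.68, SE 0.14, edgeR adjusted p = 0.0029). Cd82 (chr2:93419111-93463140), a tetraspanin known as a suppressor of metastasis, was at 156, 133 and 138 CPM in D80SV and 261, 331 and 334 CPM in D80WT. All D80SV libraries were below all other libraries (log2 fold change -1.12, SE 0.17, edgeR adjusted p = 0.00043). Sesn1, a relative of Sesn2, was at 18.8, 19.2 and 16.5 CPM in D80SV and 15.1, 19.0 and 36.9 CPM in D80WT, where D80WT replicate 3 stood far above the other libraries (interval -0.99 to 0.23). Steap3, an iron reductase of endosomes, averaged 8.47 ± 0.971 CPM in D80SV and 8.83 ± 0.848 CPM in D80WT (interval -0.40 to 0.28). Ak1, an adenylate kinase, averaged 25.6 ± 3.29 CPM in D80SV and 17.1 ± 4.93 CPM in D80WT, without overlap between the groups (log2 fold change 0.58, SE 0.25, edgeR adjusted p = 0.086).

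Of the 3 death receptors, Eda2r was higher in D80SV. Eda2r (chrX:97333840-97377216), a receptor of the tumour necrosis factor family for ectodysplasin, was at 2.91, 3.36 and 3.59 CPM in D80SV and 2.32, 1.59 and 1.52 CPM in D80WT. The D80SV libraries were above the D80WT libraries (log2 fold change 0.83, SE 0.24, edgeR adjusted p = 0.018), and the gene lies on the X chromosome. Tnfrsf10b, the mouse receptor for the death ligand Trail, averaged 8.44 ± 0.911 CPM in D80SV and 9.30 ± 2.56 CPM in D80WT. Fas, the receptor for the Fas ligand, was at 4.96, 5.75 and 6.54 CPM in D80SV and 5.40, 8.69 and 14.0 CPM in D80WT. D80WT replicate 3 held the highest Fas level of all 12, and replicate 1 lay within the D80SV range (log2 fold change -0.70, SE 0.29, edgeR adjusted p = 0.077).

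Of the 5 genes of DNA repair and nucleotide supply, only Polk was called. Polk (chr13:96480690-96542579), a DNA polymerase that copies past damaged bases, was at 11.7, 9.77 and 11.9 CPM in D80SV and 10.6, 24.0 and 18.6 CPM in D80WT. D80WT replicate 1 lay within the D80SV range and the other 2 D80WT libraries above it (log2 fold change -0.67, SE 0.24, edgeR adjusted p = 0.045), and the call held in 6 of 26 alternative fits, with adjusted p between 0.0014 and 0.42. Rrm2b, a ribonucleotide reductase subunit, averaged 14.8 ± 1.63 CPM in D80SV and 15.4 ± 1.03 CPM in D80WT (interval -0.39 to 0.28). Xpc and Ddb2, damage recognition factors of nucleotide excision repair, had log2 fold changes of -0.19 (interval -0.53 to 0.15) and 0.40 (interval -0.09 to 0.89). Ercc5, an endonuclease of the same repair pathway, had a log2 fold change of -0.03 (interval -0.40 to 0.34). Ddb2 shares 23.8% of its exon bases with Acp2 on the opposite strand, and the strand setting of the counting is not given in the sources used here. Gadd45a shares 19.1% with E230016M11Rik on the opposite strand, and Bax 12.2% with Gm45808 on the same strand. Plk3, Ei24, Rrm2b and Ptpn14 share smaller parts, up to 8.0%, with genes on the opposite strand.

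Of the 11 calls at D80, those of Sesn2, Perp, Plk2, Cd82 and Ptpn14 held in all 26 alternative fits, which include the 12 that left out 1 library each. The call of Eda2r was lost without D80SV replicate 2 or 3 and without D80WT replicate 2 or 3, with edgeR adjusted p from 0.052 to 0.063. It was also lost without D80WT replicate 3 and D80SV replicate 1 together (edgeR adjusted p = 0.073). Without D80WT replicate 1, 18 genes were called, 5 higher and 13 lower, against 45.3% of all genes called, 21.6% higher and 23.8% lower. Aen and Ak1 were added to the higher genes and Pmaip1, Gadd45a, Fas, Plk3 and Trp53i11 to the lower ones. Without any other single library, 8 to 11 genes were called, against 28.5% to 41.5% of all genes.

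Markers of cell types moved with these calls. The summed level of 11 surface mucous genes was 41414, 28169 and 25909 CPM in D80SV and 81475, 156435 and 162908 CPM in D80WT, and 10 of the 11 were lower. D80WT replicate 1 was the lowest of its group. The 15 smooth muscle genes summed to 3303 to 3453 CPM in D80SV and 13538 to 22129 CPM in D80WT, and all 15 were lower. The 15 neuroendocrine genes summed to 26824 to 40112 CPM in D80SV and 738 to 799.6 CPM in D80WT, and 14 were higher. All 10 macrophage genes were higher in D80SV, at 491 to 690.3 summed CPM against 174 to 266 in D80WT, as were all 7 tested neutrophil genes, at 25.7 to 165 against 2.40 to 5.37. D80WT replicate 3 held 13080 summed CPM of 12 duodenal genes and D80SV replicate 1 held 5467 summed CPM of the pancreatic genes, the highest of all libraries. The other D80SV libraries held 1281 and 1067 summed CPM of the pancreatic genes, against 327 to 698 in D80WT. Of the 14 pancreatic genes tested, 6 were higher and 0 lower in D80SV than in D80WT. Of the 7 hepatocyte genes tested, 5 were higher and 1 was lower. The part of these cell types in the changes of the p53 genes was not tested. Without D80WT replicate 3 and D80SV replicate 1, 8 of the 32 genes were called, 2 higher and 6 lower. In that fit 32.9% of all genes were called, 17.1% higher and 15.7% lower.

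The comparison of D60SV with D60WT asked the same at the earlier age. Only Zmat3 was called, and it was lower in D60SV, at 53.4, 45.9 and 47.1 CPM against 71.6, 67.9 and 63.5 CPM in D60WT. The groups did not overlap (log2 fold change -0.47, SE 0.11, edgeR adjusted p = 0.032). This is 3.12% of the 32 genes, against 3.90% of all genes tested, of which 3.66% were higher and 0.241% lower. The median log2 fold change of the 32 genes was -0.02, against -0.004 over all genes. The call was lost without D60SV replicate 2 or 3 and without D60WT replicate 1, 2 or 3 (0 genes called in each), under upper-quartile or no composition factors and in a fit of only the 2 groups. A fit with sex as a covariate gave no call either, but its sex term rests on the 1 male-type D80SV library, as no other group holds both types, and so it says nothing about this call.

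Another 5 genes stood apart between the groups at D60 without passing the test. Plk2 was at 14.3, 22.6 and 20.7 CPM in D60SV and 6.30, 13.5 and 10.4 CPM in D60WT, all D60SV libraries above all D60WT libraries (log2 fold change 0.92, SE 0.29, edgeR adjusted p = 0.13). Ccng1 was at 136, 124 and 129 CPM in D60SV and 157, 169 and 177 CPM in D60WT, all D60SV libraries below (log2 fold change -0.37, SE 0.11, edgeR adjusted p = 0.099). DESeq2 called both of these, Plk2 higher (adjusted p = 0.036) and Ccng1 lower (adjusted p = 0.0095). Ptpn14 was at 21.6, 34.8 and 31.7 CPM in D60SV and 35.6, 52.2 and 42.8 CPM in D60WT, and Gadd45a averaged 17.8 ± 2.57 CPM in D60SV and 24.9 ± 7.45 CPM in D60WT, both with every D60SV library below. Trp53i11 was at 115, 105 and 109 CPM in D60SV and 97.8, 82.2 and 72.3 CPM in D60WT, all D60SV libraries above (log2 fold change 0.38, SE 0.12, edgeR adjusted p = 0.14). In total 2 of the 32 genes lay above and 4 below without overlap, against 12.2% and 7.84% of all genes tested.

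At D60 the remaining genes had log2 fold changes from -0.31 for Perp to 0.44 for Pmaip1, with overlapping groups. Cd82, lower at D80, was at 318, 250.4 and 296 CPM in D60SV and 376, 260.2 and 274 CPM in D60WT, with overlap between the groups. Sesn2 averaged 7.79 ± 0.306 CPM in D60SV and 7.03 ± 0.605 CPM in D60WT, and Eda2r 1.30 ± 0.155 CPM in D60SV and 1.24 ± 0.193 CPM in D60WT. Of the 15 neuroendocrine genes, 14 were higher in D60SV, at 4695 to 6469.8 summed CPM against 523 to 678 in D60WT. The 15 smooth muscle genes summed to 8517 to 17279.7 CPM in D60SV and 19348 to 25376 CPM in D60WT, without overlap, with 1 gene called lower and all 15 log2 fold changes negative. The 10 macrophage genes summed to 137 to 306 CPM in D60SV and 63.8 to 169.8 CPM in D60WT, with 1 gene called higher and all 10 log2 fold changes positive (median 1.20). The surface mucous genes summed to 122503 to 155009 CPM in D60SV and 128134 to 217319 CPM in D60WT. Their part in the D60 values was not tested.

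The comparison of D80SV with D60SV asked how the genes moved with age in transgenic mice, and 4 of the 32 were higher and 8 lower at D80. Sesn2, Trp53inp1, Eda2r and Plk2 were higher, and Ccng1, Perp, Btg2, Ei24, Polk, Cd82, Ptpn14 and Trp53i11 were lower. That is 37.5% of the 32 genes, against 35.7% of all genes tested, of which 17.7% were higher and 18.0% lower, and the median log2 fold change was 0.02 for the 32 genes and for all genes. With no composition factor the split was 7 higher and 4 lower, against 33.5% and 7.14% of all genes, and the median of all genes was 0.38. Without overlap between the groups, 7 of the 32 genes lay above and 10 below in D80SV, against 30.6% and 28.0% of all genes. Of the cell type markers, 15 of 15 smooth muscle and 10 of 11 surface mucous genes were lower in D80SV than in D60SV, and 14 of 15 neuroendocrine, 9 of 10 macrophage and 7 of 7 tested neutrophil genes were higher. Also higher were 9 of 14 tested pancreatic and 5 of 7 tested hepatocyte genes, with 0 lower in either list. The summed levels of all these lists in D80SV lay apart from those in D60SV, and their part in the changes of the p53 genes was not tested. D80SV is shared with the comparison at D80 above, so the overlap of the 2 lists is no separate result.

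Eda2r, at 2.91 to 3.59 CPM in D80SV, was at 1.30, 1.46 and 1.15 CPM in D60SV (log2 fold change 1.28, SE 0.25, edgeR adjusted p = 0.0028). Plk2 averaged 43.5 ± 8.27 CPM in D80SV and 19.2 ± 4.35 CPM in D60SV (log2 fold change 1.18, SE 0.29, edgeR adjusted p = 0.0087). Trp53inp1 was at 21.5, 24.0 and 25.6 CPM in D80SV and 14.2, 14.5 and 17.2 CPM in D60SV, without overlap (log2 fold change 0.63, SE 0.19, edgeR adjusted p = 0.022), and the call was lost without D60SV replicate 1, D80SV replicate 2 or D80SV replicate 3 (adjusted p up to 0.074). In each of these genes all D80SV libraries lay above all D60SV libraries. Perp averaged 113 ± 11.5 CPM in D80SV and 323 ± 47.5 CPM in D60SV (log2 fold change -1.52, SE 0.26, edgeR adjusted p = 0.0014). Trp53i11, at 61.6 to 65.8 CPM in D80SV and 105 to 115 CPM in D60SV, was lower without overlap (log2 fold change -0.78, SE 0.12, edgeR adjusted p = 0.00097). Polk, at 9.77 to 11.9 CPM in D80SV, was at 22.5, 22.8 and 21.9 CPM in D60SV, with every D80SV library below every D60SV library (log2 fold change -1.0, SE 0.24, edgeR adjusted p = 0.0088), and this call held in all 26 alternative fits. The call of Ccng1 held in 19 of them and was lost without any 1 of the 3 D60SV libraries, D80SV replicate 2 or D80SV replicate 3 and under upper-quartile or no composition factors, with adjusted p up to 0.97. The call of Btg2 held in 8 of them, with adjusted p up to 0.20. Btg2 averaged 102 ± 4.26 CPM in D80SV and 164 ± 15.1 CPM in D60SV (log2 fold change -0.69, SE 0.25, edgeR adjusted p = 0.049).

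The comparison of D80WT with D60WT gave no call, and age and sex cannot be told apart in it. By the edgeR test 0 of the 32 genes and 0% of all genes passed, with 3 of the 32 and 1925 of all genes at an unadjusted p below 0.05. DESeq2 called 0 of the 32 and 254 of all genes, and limma-voom called 0 of both. Without D80WT replicate 1, 396 of all genes were called by edgeR and again 0 of the 32. The 3 genes at an unadjusted p below 0.05 were Bax, at 45.6, 33.0 and 37.9 CPM in D80WT and 50.1, 40.9 and 53.8 CPM in D60WT, Plk2, at 15.8 ± 4.62 CPM in D80WT and 10.1 ± 3.62 CPM in D60WT, and Xpc, at 20.7 ± 4.90 CPM in D80WT and 16.1 ± 1.01 CPM in D60WT (means ± SD, n = 3 each). Without overlap between the groups, 2 of the 32 genes lay above and 1 below in D80WT, against 7.06% and 4.55% of all genes. The median log2 fold change was -0.01 for the 32 genes and 0.04 for all genes.

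The interaction asked whether the genotype difference itself differed between the ages. Of the 32 genes, 2 passed, both lower, which is 6.25%, against 5.0% of all genes tested, of which 2.77% were higher and 2.23% lower. Cd82 had a genotype difference of -1.12 on the log2 scale at D80 and -0.07 at D60, and their difference was -1.04 (SE 0.24, edgeR adjusted p = 0.030). Trp53i11 had one of -0.29 at D80 and 0.38 at D60, with a difference of -0.67 (SE 0.17, edgeR adjusted p = 0.049). For Trp53i11 the D60SV libraries were the highest of all 12 and the D80SV libraries the lowest. Perp, whose genotype difference was -1.55 at D80 and -0.31 at D60, did not pass (-1.24, SE 0.35, edgeR adjusted p = 0.065). Plk2 and Sesn2 did not pass either, each with a difference of 0.54 (adjusted p = 0.47 and 0.13). DESeq2 called Perp lower (adjusted p = 0.019) and Sesn2 higher (adjusted p = 0.036) for the interaction, with 11.4% of all genes called.

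With sex as a covariate neither Cd82 (adjusted p = 0.16) nor Trp53i11 (adjusted p = 0.32) passed, in a fit whose sex term rests on 1 library. These counts depended on single libraries. Without D80WT replicate 1, 7 genes passed the interaction, adding Pmaip1, Perp, Btg2, Plk3 and Polk to the 2, against 15.5% of all genes. Without D60WT replicate 1, 3 passed, adding Perp to the 2, against 5.36% of all genes. Without D60SV replicate 1 or 3, D60WT replicate 2 or 3, D80SV replicate 2 or 3, or D80WT replicate 2 or 3, 0 passed, and without D60SV replicate 2 or D80SV replicate 1, 1 passed.

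**Figure D3:**
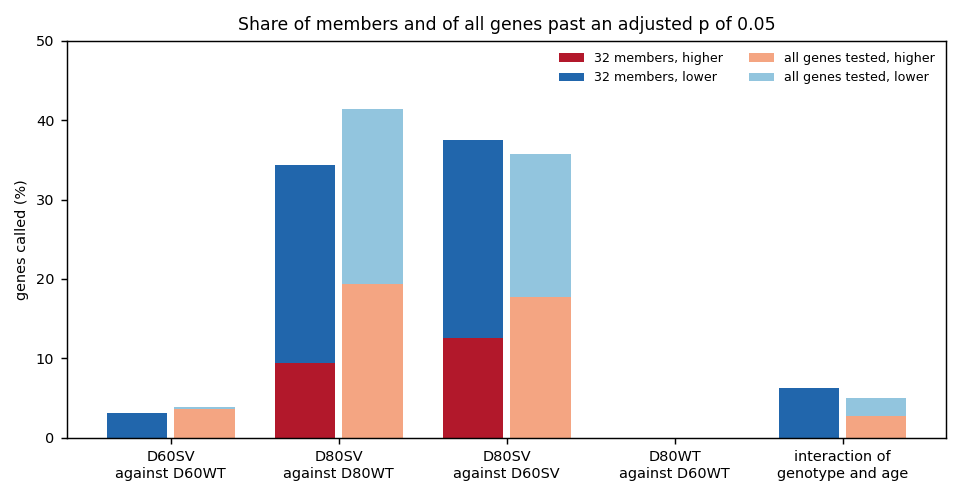
Share of the 32 genes (dark bars) and of all 15369 genes tested (pale bars) past an adjusted p of 0.05 in each comparison, split into higher (red) and lower (blue). At D80 the 32 genes reach 34.4% and all genes 41.3%, and in D80WT against D60WT both are at 0.

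Levels per length of exon differed widely among the 32 genes. Perp had the highest level in every group, at 57.9 CPM per kb in D80SV, 170.0 in D80WT, 166 in D60SV and 205 in D60WT. Cd82 followed, at 47.3 CPM per kb in D80SV and 103 in D80WT, and then Btg2, at 37.2 in D80SV and 64.2 in D80WT. The 3 most abundant genes were thus among the 8 that were lower in D80SV. Eda2r was the lowest in every group, at 0.558 CPM per kb in D80SV and 0.307 in D80WT, and was among the 3 that were higher. Trp53 itself was at 11.1 CPM per kb in D80SV and 9.66 in D80WT, and Mdm2 at 7.93 in D80SV and 7.88 in D80WT.

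**Figure D4:**
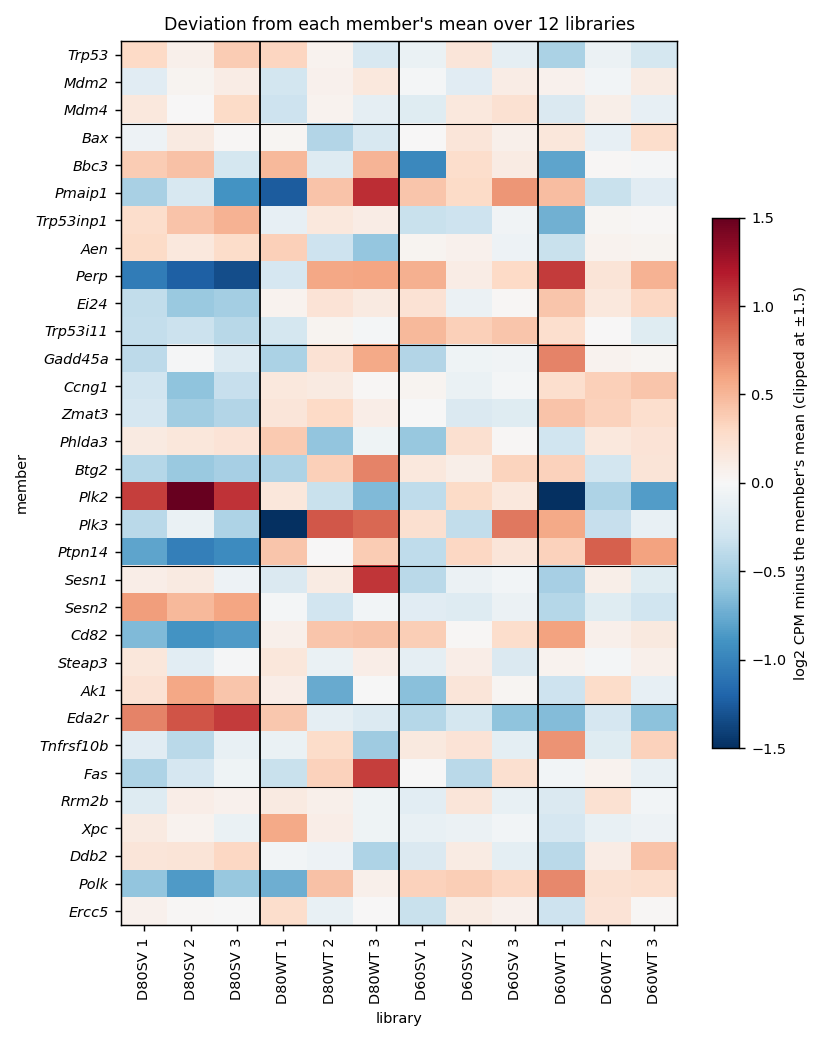
Log2 CPM of each of the 32 genes minus its mean over the 12 libraries, in each library, genes grouped by role, with colours cut at 1.5 in either direction. Perp, Cd82 and Ptpn14 are blue and Plk2, Sesn2 and Eda2r red in all 3 D80SV libraries, and D80WT replicate 1 is dark blue for Plk3 and Pmaip1 while the other 2 D80WT libraries are red.

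The spread between libraries was uneven. D80WT had the largest coefficient of variation for Pmaip1 (66.3%) and Plk3 (65.7%), and D80SV had 22.0% and 14.0% for the same genes. In D80WT replicate 1, Plk3 was at 8.21 CPM and Pmaip1 at 8.53 CPM, the lowest of all 12 libraries for both. Mdm2, in contrast, had coefficients of 5.7% to 15.1% in the 4 groups.

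Regulators of p53 outside the 32 genes were compared next. Of 23 tested regulators, 2 were higher and 10 lower in D80SV than in D80WT, which is 52.2%, against 41.3% of all genes tested (19.4% higher and 22.0% lower). Cdkn2a, which encodes the Mdm2 inhibitor Arf and the cell cycle inhibitor Ink4a, had 728, 912 and 757 counts in D80SV and 1, 0 and 1 counts in D80WT. That is a ratio of 909.8 per effective library size over the summed counts (95% counting interval 251.6 to 7517). At D60 it had 103, 173 and 146 counts in D60SV and 0, 3 and 0 in D60WT, and it was the only regulator called at D60 (4.35%, against 3.90% of all genes). Trp53bp1, a DNA damage mediator that binds p53, was at 43.7, 46.2 and 42.6 CPM in D80SV and 27.3, 19.6 and 17.2 CPM in D80WT, without overlap (log2 fold change 1.04, SE 0.17, edgeR adjusted p = 0.00076). Trp53bp2, which encodes a p53-binding protein that favours apoptosis, averaged 39.2 ± 4.86 CPM in D80SV and 60.0 ± 6.19 CPM in D80WT (log2 fold change -0.61, SE 0.12, edgeR adjusted p = 0.0025). Cop1, a ubiquitin ligase of p53, averaged 36.1 ± 1.82 CPM in D80SV and 50.7 ± 6.38 CPM in D80WT (log2 fold change -0.49, SE 0.12, edgeR adjusted p = 0.0064). Without D80SV replicate 3, 7 regulators were called in place of 12, and with no composition factor 5, all higher.

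**Figure D5:**
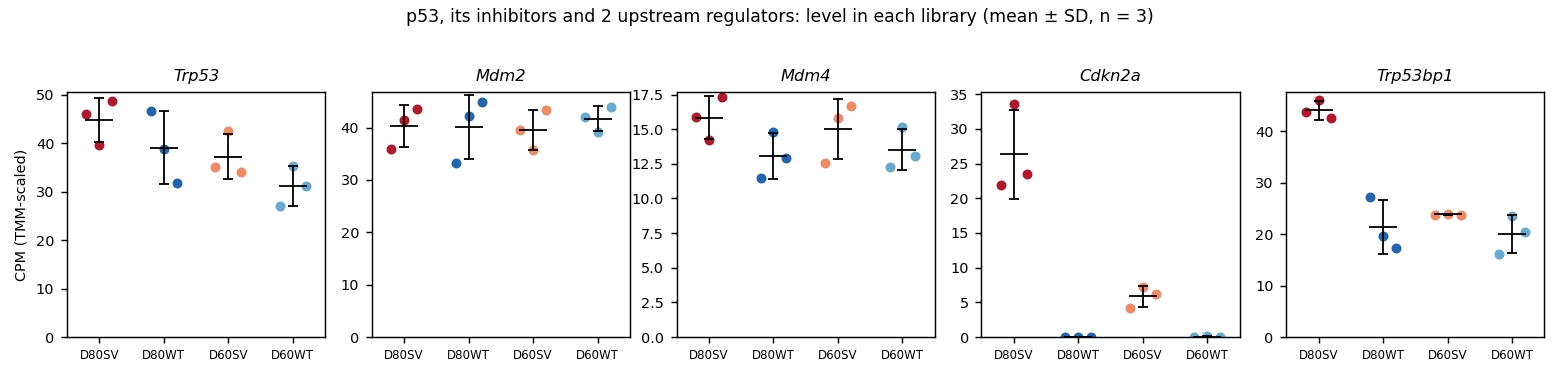
CPM of Trp53, Mdm2, Mdm4, Cdkn2a and Trp53bp1 in each library, with the mean and SD of each group (n = 3). Cdkn2a is at or near 0 in both wild-type groups and at 21.9 to 33.6 CPM in D80SV, while the 12 libraries of Mdm2 lie between 33.2 and 44.8 CPM.

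Between D80SV and D60SV, 2 regulators were higher and 8 lower, which is 43.5%, against 35.7% of all genes (17.7% higher and 18.0% lower). Cdkn2a averaged 26.3 ± 6.38 CPM in D80SV and 5.87 ± 1.54 CPM in D60SV (log2 fold change 2.15, SE 0.34, edgeR adjusted p = 0.0010), and Trp53bp1 was also higher. Rpl11, a ribosomal protein that binds Mdm2, averaged 344 ± 24.4 CPM in D80SV and 749.7 ± 107 CPM in D60SV (log2 fold change -1.13, SE 0.19, edgeR adjusted p = 0.0016), and Trp53bp2 was lower too. For the interaction, Pml, the scaffold of nuclear bodies that recruit p53, was the only regulator called, 4.35% against 5.0% of all genes (log2 fold change -0.71, SE 0.18, edgeR adjusted p = 0.045).

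A second list held 35 further p53 target genes, of which 32 were tested, and 7 were higher and 12 lower in D80SV than in D80WT. This is 59.4%, against the 41.3% of all genes tested. Cpt1c, a brain-type carnitine palmitoyltransferase, was at 17.5, 31.1 and 25.9 CPM in D80SV and 2.68, 2.56 and 2.43 CPM in D80WT (log2 fold change 3.24, SE 0.33, edgeR adjusted p = 2.4e-05). Pidd1, which forms a caspase-activating complex, averaged 10.8 ± 2.36 CPM in D80SV and 2.72 ± 0.424 CPM in D80WT (log2 fold change 1.96, SE 0.27, edgeR adjusted p = 0.00022). Gls2, a mitochondrial glutaminase, averaged 9.35 ± 2.10 CPM in D80SV and 2.14 ± 0.656 CPM in D80WT (log2 fold change 2.09, SE 0.29, edgeR adjusted p = 0.00026). Abhd4, a lipid hydrolase, was lower, at 66.1 ± 5.49 CPM in D80SV and 109 ± 20.9 CPM in D80WT (log2 fold change -0.72, SE 0.14, edgeR adjusted p = 0.0018). Cdkn1a, which encodes the cell cycle inhibitor p21 and is named here after its values were seen, averaged 135 ± 25.1 CPM in D80SV and 338 ± 217 CPM in D80WT (log2 fold change -1.32, SE 0.41, edgeR adjusted p = 0.024). Its spread in D80WT was wide. Whether the call of Cdkn1a holds in the alternative fits was not tested, as single genes were followed there only among the 32.

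At D60, 2 of these 32 further targets were higher in D60SV and none was lower, which is 6.25%, against 3.90% of all genes (3.66% higher). Cpt1c was at 2.89, 7.54 and 5.96 CPM in D60SV and 1.54, 2.21 and 2.05 CPM in D60WT (log2 fold change 1.45, SE 0.33, edgeR adjusted p = 0.028). Gdf15, a stress-induced cytokine, had 33, 28 and 37 counts in D60SV and 0, 3 and 5 counts in D60WT (log2 fold change 2.74, SE 0.62, edgeR adjusted p = 0.028). Without any 1 of D60SV replicate 2 or 3, the 3 D60WT libraries or D80SV replicate 3, 0 of the list were called, and without D60SV replicate 1, 1. Between D80SV and D60SV, 6 were higher and 11 lower (53.1%, against 35.7% of all genes), and 11 in all were called without D80SV replicate 3. Gls2 (log2 fold change 1.76) and Cpt1c (2.17) were higher, and Rps27l, a ribosomal protein paralog (-0.70), and Tigar, a fructose bisphosphatase (-1.16), were lower. For the interaction, 3 were higher (9.38%, against 5.0% of all genes called and 2.77% higher), Ddit4, an inhibitor of mTORC1 (log2 fold change 1.23, SE 0.21, edgeR adjusted p = 0.012), Gls2 (1.77) and Cpt1c (1.79). That count was 13 without D80WT replicate 1 and 1 without any 1 of D60SV replicate 3, D60WT replicate 2 or 3, D80SV replicate 2 or 3, or D80WT replicate 2 or 3.

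Genes of proliferation moved in the same libraries. Of 26 such genes, 23 were higher and none lower in D80SV than in D80WT, which is 88.5%, against 41.3% of all genes called and 19.4% higher. Ccne2, which encodes cyclin E2, was at 14.1, 14.1 and 17.9 CPM in D80SV and 3.86, 4.90 and 3.81 CPM in D80WT (log2 fold change 1.86, SE 0.20, edgeR adjusted p = 3.8e-05). E2f1, the transcription factor released from the retinoblastoma protein, was at 23.9, 28.7 and 24.7 CPM in D80SV and 9.10, 8.96 and 6.67 CPM in D80WT (log2 fold change 1.63, SE 0.20, edgeR adjusted p = 7.8e-05). In both genes every D80SV library lay above every D80WT library. Rrm2, a ribonucleotide reductase subunit, and Mcm2, of the replicative helicase, had log2 fold changes of 1.49 and 1.56. At D60, E2f1 alone was called (3.85% of the list, against 3.90% of all genes), at 11.6, 16.4 and 13.3 CPM in D60SV and 5.62, 8.20 and 7.90 CPM in D60WT (log2 fold change 0.91, SE 0.19, edgeR adjusted p = 0.020). All 26 log2 fold changes at D60 were positive, with a median of 0.33, against -0.004 over all genes. Of the 26 genes, 16 lay above and 0 below in D60SV without overlap, against 12.2% and 7.84% of all genes. The count called at D60 was 0 without D60SV replicate 2 or 3 or D60WT replicate 1 or 3, 2 without D80WT replicate 1 and 4 without D80WT replicate 3.

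Between D80SV and D60SV, 14 proliferation genes were higher and none lower (53.8%, against 35.7% of all genes called and 17.7% higher), led by Rrm2, Mcm2, Ccne2 and E2f1 with log2 fold changes of 1.23, 1.04, 0.94 and 0.90. The count was 8 without D60SV replicate 1, 5 without D60SV replicate 3, 9 without D80SV replicate 1 and 5 without D80SV replicate 2. For the interaction, Ccne2 (log2 fold change 1.28, SE 0.28, edgeR adjusted p = 0.027) and Rrm2 (log2 fold change 1.10, SE 0.27, edgeR adjusted p = 0.038) were higher, which is 7.69%, against 5.0% of all genes. The count was 1 without D60SV replicate 1 or D60WT replicate 1 or 2, and 0 without D60SV replicate 3, D60WT replicate 3, D80SV replicate 2 or 3, or D80WT replicate 3.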

How the data were processed

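Bulk pylorus RNA of 4 groups was measured in 12 libraries made with an Illumina stranded mRNA kit, per the labels' protocols. The authors deposited raw counts per gene for 23420 gene symbols, without normalization. The submitters' processing notes name mm10 and the tools HTSeq 0.9.1, STAR 2.5.3a and edgeR 3.16.5, without roles. Annotation and strand setting were not given in the sources used here. For 15465 genes a normalized signal was deposited too, in which counts had been divided by a factor for each library. Multiplying back gave whole counts for 100% of values (tolerance 0.01 of a count), identical to the raw ones in the 15442 genes matched by name.

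The counts were analysed with edgeR 4.0.16 (R 4.3.3). The filterByExpr filter left 15369 genes with 99.975% of the counts. Libraries were scaled by TMM, and a quasi-likelihood model with a mean for each group (8 residual degrees of freedom, common biological coefficient of variation 24.2%) was fitted to all 12 libraries. In each of 5 comparisons, p-values of all genes tested received Benjamini-Hochberg adjustment. Intervals of log2 fold changes are 95%. Total counts were 20121600 to 27633715 per library, where 3 counts equal 0.0901 to 0.185 CPM; counting intervals (Clopper-Pearson) cover counting error only. Exon lengths and positions came from GENCODE M21 on GRCm38. The pipeline was tested on simulated data.

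The 32 genes and all lists were chosen with earlier results of these data known. All 32 genes are named. From the lists of regulators, other targets and proliferation genes, up to 4 called genes per list and comparison with the smallest p-values are named; 4 symbols were matched by an older name. Alternatives were other scaling factors and filters, DESeq2 1.42.0, limma-voom and limma on the normalized signal (limma 3.58.1, log2 of the signal plus 0.5), robust dispersion, a replicate block, only the 2 groups compared, sex as a covariate, leaving out libraries, and, chosen after seeing the data, the recovered counts.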

Additional observations from a re-analysis of the deposited data

Results flagged for a closer look

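The genotype difference of 2 of the 32 genes differed between the ages by the interaction test of edgeR. Cd82 had a difference of genotype differences, D80 minus D60, of -1.04 on the log2 scale (SE 0.24, adjusted p = 0.030), and its 3 D80SV libraries lay below the other 9. The value kept its sign in all 25 alternative fits, from -1.32 to -0.74, and passed the threshold in 15, with adjusted p from 0.0029 to 0.16. Trp53i11 had one of -0.67 (SE 0.17, adjusted p = 0.049), higher in 3 of 3 D60SV libraries than in any D60WT library and lower in 3 of 3 D80SV libraries than in any D80WT library. It also kept its sign, from -0.76 to -0.36, and passed in 7 of the 25, with adjusted p from 0.013 to 0.32. The interaction holds the D60 contrast, in which genotype and sex cannot be told apart. With sex as a covariate, a term that rests on 1 library, both calls were lost (adjusted p = 0.16 for Cd82 and 0.32 for Trp53i11).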

How the results depend on the processing

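Each fold change of the 32 genes and each count was recomputed under 26 alternatives (25 for the interaction). Of the 32-gene fold changes, 36 alternative values passed the threshold where the reported fit did not, 105 lost it, and 1 turned its sign, Trp53i11 in D80SV against D80WT with no composition factor, at 0.14. A sign was taken as turned where 1 of the 2 values was called or both lay over 1 SE from 0. Unless a cause shows in the alternative's own construction, the cause of a change was not tested. The decamer stood in a window of 9 of 24 genes and the full element in that of 1.

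With upper-quartile factors, 0 of the 32 genes were called at D60 and 1 for the interaction, 0 regulators were called for the interaction, and the medians of the 32 genes were 0.043 at D80, 0.12 in D80SV against D60SV and 0.072 for the interaction. RLE size factors gave 1 of the 32 genes and 0 regulators for the interaction, as did no filter on low counts. With no composition factor, the medians were 0.077 at D60, 0.29 at D80, 0.39 in D80SV against D60SV, 0.052 in D80WT against D60WT and 0.26 for the interaction, 5 regulators were called at D80, 25 proliferation genes in D80SV against D60SV, and 1 of the 32 genes and 0 regulators for the interaction.

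DESeq2 called 992 of all genes, 3 of the 32, 2 regulators and 2 proliferation genes at D60, 254 of all genes, 2 regulators and 2 other targets in D80WT against D60WT, and 1745 of all genes, 4 of the 32 and 4 regulators for the interaction. Limma-voom called 0 other targets at D60 and, for the interaction, 423 of all genes, 1 of the 32, 0 regulators, 1 other target and 1 proliferation gene. Limma on the normalized signal called 1320 of all genes and 3 regulators for the interaction. With only the 2 groups compared, 0 of the 32 genes, 1 other target and 2 proliferation genes were called at D60, 7 regulators at D80 and 5 of all genes in D80WT against D60WT. With sex as a covariate, whose term rests on the 1 male-type D80SV library, 85 of all genes and 0 of the 32 genes, other targets and proliferation genes were called at D60, 9 proliferation genes in D80SV against D60SV, 1 of all genes in D80WT against D60WT, and 99 of all genes and 0 of each list for the interaction, where the median was -0.21. Without D80WT replicate 3 and D80SV replicate 1 together, 3 proliferation genes were called at D60, 15 at D80 and 1 for the interaction, 7 of all genes in D80WT against D60WT, and 0 of the 32 genes for the interaction.

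The labels do not say that replicate numbers pair libraries. The 18 same-number pairs had residual correlations of -0.344 to 0.393 (mean -0.004). These values cannot decide whether the numbers pair libraries, as pairs of unlike number were not set beside them. With the replicate block, 1 of the 32 genes was called for the interaction in place of 2, and 2 proliferation genes at D60 in place of 1.

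Leaving out 1 library at a time, with a group of 2 left, the calls among all genes ran from 378 to 736 at D60 and from 4416 to 7079 at D80. They ran from 3507 to 6594 in D80SV against D60SV, from 0 to 396 in D80WT against D60WT and from 193 to 2419 for the interaction. Those among the 32 genes ran from 0 to 1 at D60, 8 to 18 at D80 and 0 to 7 for the interaction. Their medians ran from -0.070 to 0.051 at D60, -0.18 to -0.064 at D80, -0.057 to 0.12 in D80SV against D60SV and -0.14 to 0.091 for the interaction. Regulators ran from 1 to 2 at D60, 7 to 13 at D80 and 0 to 4 for the interaction, other targets from 0 to 2 at D60, 11 to 21 in D80SV against D60SV, 0 to 4 in D80WT against D60WT and 1 to 13 for the interaction, and proliferation genes from 0 to 4 at D60, 5 to 18 in D80SV against D60SV and 0 to 3 for the interaction. Eda2r had the lowest level of the 32 genes, at 0.21 CPM per kb in D60WT.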
